A study of Mus musculus with 10 samples.

Results

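Of the 34590 genes listed, 145 were far higher in both libraries of converted hair cells (cHCs) than in any other library. A gene was taken when it had at least 10 CPM (its counts divided by all counts on genes of that library, times 1000000) in both cHC libraries, and when the lower cHC level was at least 5 times the highest level in any of the 8 other libraries. These levels chose the genes, so their height in cHCs and their lower level elsewhere are given as a description and are not tested. Tests are given only for contrasts between other cell types, or for genes that are not among the 145.

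Bulk RNA-seq was done on fluorescent cells picked by hand from dissociated mouse cochleae, with 2 libraries of each of 5 cell types. Supporting cells (SCs) came from mice with Fgfr3iCreER, a tamoxifen-inducible Cre that is active in Deiters' and pillar cells, and a Rosa26 tdTomato reporter with a loxP-flanked stop, at P26 (library 11) and P27 (library 12). The cHCs carried the same pair of alleles together with Atoh1-HA, a transgene that Cre switches on, and alpha9 AChR-EGFP, a reporter of hair cells, and were taken at P33 (libraries 13 and 16). Outer hair cells (OHCs) were profiled at P7 (libraries 14 and 15) and as mature cells at P21 (1 library) and P22 (1 library), here together called OHCs (P22) and given as P22 and P23 by the study, and both ages are labelled as heterozygous prestin-YFP knock-in mice. Inner hair cells (IHCs) came from Pval-Cre mice with the same tdTomato reporter at P74 (1 library) and P75 (1 library). According to the methods of the study, tamoxifen was given at P12 and P13 to the SC and cHC mice, and the P7 OHCs were marked by a prestin-driven CreERT2 and tdTomato with tamoxifen at P2 and P3, which differs from their label. Since cHCs were picked by EGFP, converted cells without EGFP were not sampled. Only the cHC mice carried Atoh1-HA and EGFP and only they were studied at P33, so conversion, transgenes and age cannot be told apart. The study calls the 2 libraries of a cell type biological duplicates, and the number of mice behind a library is not given in the sources used here. In all sentences below, the 2 values of a cell type follow the order of the libraries just given.

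Atoh1 is the basic helix-loop-helix transcription factor that starts hair cell differentiation, and it binds E-boxes, short DNA motifs of the form CANNTG. In the developing cochlea, cells with Atoh1 express Notch ligands that hold their neighbours in the supporting cell fate through Hes and Hey repressors, and Atoh1 is switched off again as hair cells mature. Forced expression of Atoh1 in supporting cells turns some of them into cells that hold hair cell proteins without becoming full outer hair cells.

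The libraries held between 15016129 and 40518766 counts on genes, and 3 counts, taken as the limit of detection, corresponded to between 0.0740 and 0.200 CPM. The lowest count of any of the 145 genes in a cHC library was 197, so counting error was small in cHCs, whereas many values elsewhere rested on a few counts. The cHC label was checked with genes outside the set. Of 19 hair cell markers, 14 rose in cHCs over SCs (edgeR's quasi-likelihood test, adjusted p under 0.05), against 1.75% of 16891 genes tested that rose, and the summed level of the 19 was 7340 and 9266 CPM in cHCs, against 599 and 522 CPM for SCs, with 12599.6 and 12999.6 CPM in OHCs (P7). Chrna9, which encodes the alpha9 AChR, was among the 14, but cHCs were picked by the EGFP reporter of that gene. Its rise is thus no independent check. In cHCs against OHCs (P7), Otof, Slc26a5 and Ocm were the 3 hair cell markers that fell, against 0.219% of all genes tested. They encode otoferlin of the ribbon synapse, the OHC motor prestin and the calcium buffer oncomodulin, and Ocm had 5.96 and 2.26 CPM in cHCs but 3103 and 3373 CPM in OHCs (P7). The P7 OHCs were picked by a reporter of the prestin gene, so the fall of Slc26a5 is no independent check either. The call of Otof was lost in 6 of 10 alternatives. Of 11 supporting cell markers, S100a1 alone fell in cHCs against SCs (edgeR), against 0.0888% of all genes, and the summed level of the list was 3967 and 1565 CPM in cHCs, 12252 and 9009 CPM in SCs, with 1145 and 912 CPM in OHCs (P7). S100a1 carried most of these sums, with 2464 and 512 CPM in cHCs and 10042.5 and 7228 CPM in SCs, whereas Fgfr3 with 549 and 512 CPM and Prox1 with 296 and 348 CPM were higher in both cHC libraries than in all others. The sum for cHC library 13 was above that of library 16. Fibroblast markers summed to 234 and 19.4 CPM in cHCs, Schwann cell markers to 29.6 and 31.1 CPM, and macrophage, erythroid and endothelial markers to at most 12.4 CPM. Of the fibroblast markers, Lum had 213 and 7.84 CPM in cHCs and 665 and 681 CPM in SCs. In bulk samples, fewer cells of a type and less RNA per cell cannot be told apart.

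The 145 genes made up 0.419% of the listed genes and 1.99% of the 7285 genes at 10 CPM or more in both cHC libraries. The same rule applied to each other cell type gave fewer genes, with 58 in IHCs, 36 in SCs, 30 in OHCs (P22) and 28 in OHCs (P7). As a share of the genes at 10 CPM or more in that cell type, these were 0.870%, 0.577%, 0.579% and 0.425%. Together the 145 genes took 1.96% and 3.08% of all counts in cHCs and between 0.0302% and 0.0949% in the other 8 libraries. The median gene had a lower cHC level of 52.6 CPM and a highest level elsewhere of 2.995 CPM, and the ratio of the lower cHC level to the highest level elsewhere was 14.7 at the median, from 5.18 to 1084. The ratio was over 10 for 91 genes, over 20 for 58 and over 100 for 30. For 19 genes, each of the other 8 libraries had 3 counts or fewer, so that the size of their ratios is uncertain. With the mm9 GENCODE annotation, 142 of the genes were found by symbol, of which 132 were protein coding, 5 pseudogenes, 3 processed transcripts and 2 lincRNAs.

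**Figure D1:**
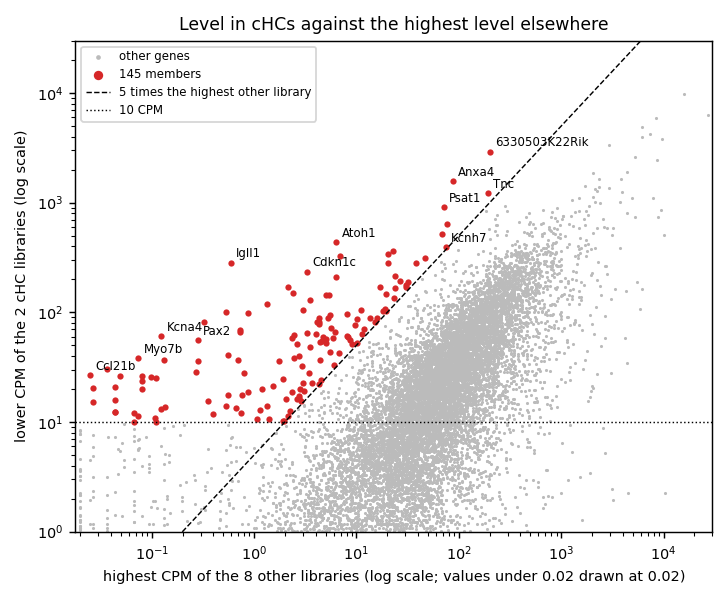
Lower CPM of the 2 cHC libraries (vertical log axis) against the highest CPM of the other 8 libraries (horizontal log axis), with 1 point for each gene, the 145 genes of the set in red, other genes in grey and both thresholds of the rule as broken lines. The set lies above the line of a 5-fold ratio and above 10 CPM, with ratios that run from 5.18 near the line to 1084 at the far left.

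At the 10 CPM threshold, the genes just inside were Lrit2 with a lower cHC level of 10.04 CPM, Xkr4 with 10.04 CPM, Vwc2 with 10.2 CPM and Armc3 with 10.3 CPM. Just outside it were 1700026D08Rik with 9.99 CPM, Il25 with 9.58 CPM, D17H6S56E-5 with 9.48 CPM and F730016J06Rik with 9.43 CPM. At the 5-fold threshold, Mogat1 was inside with a ratio of 5.18, as were Vwc2 with 5.18, Tac4 with 5.19 and Rhbdf2 with 5.27. Zfp583 with a ratio of 4.79, Fam196a with 4.72, Cdh4 with 4.63 and BC030867 with 4.58 were outside. The genes on either side of a threshold thus differed little.

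Regulators of transcription, Notch signalling and the cell cycle made up 13 of the 145 genes. Atoh1 had 436 and 2151 CPM in cHCs, 1.78 and 0.266 CPM in SCs, 6.32 and 2.13 CPM in OHCs (P7), and 0 in both libraries of OHCs (P22) and of IHCs. It was thus near its limit of detection in mature hair cells and low in P7 OHCs, and it was 1 of the 13 genes that were over 4-fold apart between the cHC libraries. The counts do not separate transcripts of the endogenous gene (mm9 chr6:64679140-64681227) from those of Atoh1-HA.

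Hes6, a Hes family protein that counteracts Hes1, had 52.6 and 105 CPM in cHCs, 0.642 and 0.0443 CPM in SCs, 0.402 and 2.60 CPM in OHCs (P7), 4.98 and 5.01 CPM in OHCs (P22) and 0 and 0.679 CPM in IHCs. Dll3, a Notch ligand that acts within the cell that makes it, had 57.9 and 83.2 CPM in cHCs, 0.173 and 5.89 CPM in SCs, 0.0803 and 0 CPM in OHCs (P7), and 0 in the 4 libraries of mature hair cells. The highest level outside cHCs was found in a different cell type for each, in OHCs (P22) for Hes6 and in SCs for Dll3. Neurl1b, which encodes a ubiquitin ligase of Notch ligands, had 56.8 and 328 CPM in cHCs and at most 5.09 CPM elsewhere.

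Insm1, a zinc finger factor of neuroendocrine cells and of nascent OHCs, had 22.5 and 107 CPM in cHCs, 0.0247 and 0 CPM in SCs, 0.830 and 3.66 CPM in OHCs (P7) and 0 in the 4 libraries of mature hair cells. St18, of the Myt1 family of zinc finger factors, had 25.8 and 126 CPM in cHCs, 0.0987 and 0 CPM in SCs, 0.0803 and 0 CPM in OHCs (P7) and 0 in the other 4 libraries. Cbfa2t3, a transcriptional corepressor, had 66.7 and 146 CPM in cHCs, 0.148 and 0.221 CPM in SCs, 0.107 and 0.733 CPM in OHCs (P7), 0 and 0.1404 CPM in OHCs (P22) and 0 in IHCs. St18 was therefore at 3 counts or fewer per library in all native hair cells sampled, while Insm1 kept a low level in OHCs (P7). Cdkn1c, which encodes the cyclin-dependent kinase inhibitor p57, had 235 and 326 CPM in cHCs, 3.31 and 0.221 CPM in SCs, 0.455 and 0.133 CPM in OHCs (P7), 0.103 and 0 CPM in OHCs (P22) and 0.0366 and 0.339 CPM in IHCs. Cdkn1c thus had its highest level outside cHCs in an SC library. Of the 4 other tested genes of cyclin-dependent kinase inhibitors, Cdkn1a (p21) rose in OHCs (P7) over OHCs (P22) by edgeR, a call lost in 7 of 10 alternatives.

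The other regulators were Pax2, an otic transcription factor, with 55.4 and 135 CPM in cHCs and at most 0.281 CPM elsewhere, and Eya2, a transcriptional coactivator, with 63.3 and 173 CPM and at most 4.06 CPM. The nuclear receptor gene Esrrg had 60.5 and 117 CPM in cHCs and at most 8.09 CPM elsewhere, the corepressor gene Skor1 had 36.1 and 61.3 CPM and at most 0.281 CPM, and Tead4, a factor of the Hippo pathway, had 16.4 and 34.0 CPM and at most 2.60 CPM. All 13 regulators were higher in cHC library 16 than in library 13, with a median ratio of 2.18, and Atoh1 was among them. Over all 145 genes, 104 were higher in library 16 with a median ratio of 1.36, whereas among all genes at 10 CPM or more in both cHC libraries 50.5% were higher in library 16 with a median ratio of 1.01. The part of supporting cell transcripts, whose sum was higher in library 13, in this difference was not tested.

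**Figure D2:**
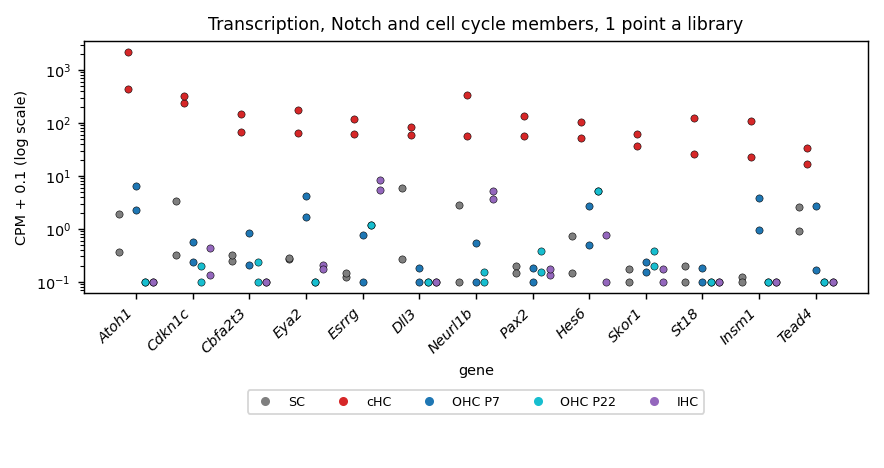
Level (CPM with 0.1 added, vertical log axis) of the 13 regulators (horizontal axis), with 1 point for each of the 10 libraries, coloured by cell type. For each gene the 2 cHC points stand above all others, as for Atoh1 with 436 and 2151 CPM, while points at the bottom are libraries at 0.

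The promoters of the genes were searched for E-boxes, because Atoh1 binds such motifs and was itself the factor introduced. RefSeq promoter windows (GRCm38.p6, from 250 bases before to 50 bases after a transcription start) were found for 99 of the 145 genes, with 1 window for each gene, and both strands were searched for 4 hexamers. CAGCTG was held by 23.2% of the 99 windows, against 15.7% of the windows of all 18357 genes. CAGATG was held by 23.2% against 14.9%, CAGGTG by 28.3% against 19.6%, and CACGTG by 7.07% against 8.05%. The median GC content of the windows was 59.0% in the set and 56.3% over all genes. The shares are a description of these letters, not of binding, and were not tested. The windows of the Notch and transcription genes that hold CAGCTG or CAGATG, and those of the channel genes Cacna1b and Kcna4, are shown with the hexamer in capitals (CATCTG is CAGATG read on the other strand) and up to 20 bases on each side.
Hes6: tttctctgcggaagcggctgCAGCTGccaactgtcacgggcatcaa
Dll3: tataagactccggcatccagCAGCTGc
Cbfa2t3, first site: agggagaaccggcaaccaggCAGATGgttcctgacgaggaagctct
Cbfa2t3, middle site: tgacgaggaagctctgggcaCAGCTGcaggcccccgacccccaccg
Cbfa2t3, last site: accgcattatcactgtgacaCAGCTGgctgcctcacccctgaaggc
Cacna1b: ccgcggctcgggtgcggtagCAGCTGgc
Kcna4: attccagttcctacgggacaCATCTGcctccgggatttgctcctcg
In GRCm38.p6, these stretches lie at chr1:91414184-91414229 for Hes6, chr7:28301786-28301812 for Dll3, chr8:122699261-122699306, chr8:122699230-122699275 and chr8:122699188-122699233 for Cbfa2t3, and chr2:24763153-24763180 for Cacna1b, all on the minus strand. That of Kcna4 lies on the plus strand at chr2:107290374-107290419. Sequences read 5′ to 3′ on the strand of the gene, and the hexamers begin 171 bases before the transcription start in Hes6, 7 bases in Dll3, 177, 146 and 104 bases in Cbfa2t3, 8 bases in Cacna1b and 195 bases in Kcna4.

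Other genes of the proneural and Notch pathway were followed to see how far the set stands for the pathway. Of a list of 40 genes, 6 belong to the set (Atoh1, Cbfa2t3, Dll3, Hes6, Insm1 and St18), and of the 26 others that could be tested, Jag2, Nhlh1, Myt1 and Srrm4 rose in cHCs over SCs (edgeR, 1.75% of all genes rose). Nhlh1, a neuronal helix-loop-helix factor, had 178 and 440 CPM in cHCs, 0.370 and 0.177 CPM in SCs, 112 and 112 CPM in OHCs (P7), 0 and 0.281 CPM in OHCs (P22) and 0 in IHCs. Jag2, a Notch ligand of hair cells, had 116 and 187 CPM in cHCs and 0.642 and 0.133 CPM in SCs, and the splicing regulator gene Srrm4 had 241 and 408 CPM in cHCs and 4.86 and 0.221 CPM in SCs. These genes also rose in OHCs (P7) over SCs (edgeR, 2.56% of all genes rose), as Myt1 did, while Hes1, Hey1, Hey2, Id1 and Id3, targets of Notch and related signals, fell there (0.853% of all genes fell). The call of Id3 was lost in 6 of 10 alternatives, and those of Hes1, Hey2, Jag2 and Myt1 in 4 each. In cHCs against OHCs (P7), Id1 rose with 66.5 and 35.9 CPM in cHCs against 0.723 and 0.200 CPM in OHCs (P7) (edgeR, adjusted p = 0.0281), and 0.124% of all genes rose. Id1 stood at 94.8 and 197 CPM in SCs, above its cHC level, and the call was lost in 5 of 10 alternatives. In OHCs (P7) against OHCs (P22), Jag1, Nhlh1, Mycl1 and Srrm4 rose (0.42% of all genes), and in OHCs (P7) against IHCs Nhlh1 rose (0.249%) and Id1 fell (0.13%). The calls of Jag1, Mycl1 and Srrm4 against OHCs (P22) were each lost in 6 of 10 alternatives. The contrasts share libraries, so the calls are not independent of each other.

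Synaptic, secretory and peptide genes numbered 10 in the set. Rab3b, a small GTPase of secretory vesicles, had 65.4 and 285 CPM in cHCs, 0.346 and 0.0443 CPM in SCs, 3.29 and 1.20 CPM in OHCs (P7), 0.205 and 0.0468 CPM in OHCs (P22) and 0.0733 and 0.0377 CPM in IHCs. Syn2, a synapsin that coats synaptic vesicles, had 24.6 and 28.9 CPM in cHCs, 0.0740 and 0.0443 CPM in SCs, 0.0268 and 0.266 CPM in OHCs (P7), 0.975 and 0.562 CPM in OHCs (P22) and 0.733 and 1.92 CPM in IHCs. The Rab3 partner gene Rph3a had 98.2 and 206 CPM in cHCs and at most 0.873 CPM elsewhere, and Fer1l6, a relative of otoferlin, had 208 and 271 CPM and at most 6.37 CPM. Its relative Syn1, which is not in the set, had 12.8 and 36.2 CPM in cHCs, 49.2 and 24.8 CPM in OHCs (P7), 65.1 and 15.6 CPM in OHCs (P22) and 33.1 and 16.9 CPM in IHCs, so the 2 synapsin genes differed in where they were found. Neuropeptide genes were also present, with Grp (gastrin-releasing peptide) at 215 and 337 CPM in cHCs and at most 23.6 CPM elsewhere, and Tac4 at 51.0 and 22.1 CPM and at most 4.26 CPM. Ecel1, a neuronal endopeptidase, had 102 and 411 CPM in cHCs and at most 0.536 CPM elsewhere. Of 22 tested genes of a neurosecretory and presynaptic list that are not in the set, Chga, Chgb, Scg3, Cpe and Snap25 rose in cHCs over SCs and again in OHCs (P7) over SCs (edgeR). Spiral ganglion neuron markers summed to 110 and 193 CPM in cHCs, 176 and 192 CPM in OHCs (P7), 398 and 591 CPM in IHCs and at most 1.11 CPM in SCs. In cHCs, Nefm had 79.3 and 124.7 CPM of these sums and Rbfox3 had 29.6 and 53.2 CPM. Nefh had 0.815 and 15.4 CPM there, while Nefl, Tubb3, Prph and Thy1 had at most 0.612 CPM. The part of neuron transcripts in the levels of synaptic genes was not tested.

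Channels, pumps and transporters contributed 13 genes. Kcnh7, an ERG-type potassium channel, had 393 and 409 CPM in cHCs, 3.50 and 2.17 CPM in SCs, 29.6 and 74.3 CPM in OHCs (P7), 5.44 and 40.0 CPM in OHCs (P22) and 6.37 and 3.02 CPM in IHCs. Its relative Kcnh6 had 359 and 283 CPM in cHCs, with 4.39 and 20.3 CPM in OHCs (P7) and at most 1.70 CPM in the other 6 libraries. Both ERG genes thus had their highest level outside cHCs in OHCs (P7). Kcna4, a potassium channel of the Shaker type, had 60.5 and 109 CPM in cHCs, 0.123 and 0 CPM in SCs, 0.0803 and 0 CPM in OHCs (P7), 0 in OHCs (P22) and 0.0366 and 0 CPM in IHCs. Cacna1b, the pore subunit of N-type calcium channels, had 188 and 326 CPM in cHCs, 0.173 and 0.0443 CPM in SCs, 4.15 and 0.133 CPM in OHCs (P7), 4.31 and 31.6 CPM in OHCs (P22) and 0.952 and 0.792 CPM in IHCs. For Cacna1b a single library, that of OHCs at P22, set the highest level outside cHCs. Of 14 other tested calcium channel subunit genes, Cacnb2, a beta subunit, rose both in cHCs and in OHCs (P7) over SCs (edgeR). The other genes of the group included Atp10a, a lipid flippase with 61.1 and 12.9 CPM in cHCs, Abcc1, an ABC exporter with 186 and 176 CPM, and the urea transporter Slc14a1 with 144 and 274 CPM and at most 5.39 CPM elsewhere.

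Adhesion, guidance and matrix genes numbered 15. Tnc, the matrix glycoprotein tenascin-C, had 1213 and 1919 CPM in cHCs, 1.33 and 0.797 CPM in SCs, 163 and 192 CPM in OHCs (P7), 0 and 11.3 CPM in OHCs (P22) and 0 in IHCs. Heg1, a transmembrane protein of cell junctions, had 365 and 577 CPM in cHCs, 0.568 and 0.398 CPM in SCs, 3.75 and 22.9 CPM in OHCs (P7), 2.46 and 7.72 CPM in OHCs (P22) and 0.0366 and 0.0377 CPM in IHCs. Both were next highest in OHCs (P7), as was the Slit receptor gene Robo2, with 281 and 294 CPM in cHCs, 34.5 and 37.8 CPM in OHCs (P7) and at most 2.82 CPM in the other 6 libraries. Sema7a, a membrane-bound semaphorin, differed in having its next highest level in OHCs (P22), with 15.2 and 11.4 CPM there and 80.9 and 128 CPM in cHCs. Igsf21, an immunoglobulin superfamily protein of synapses, had 26.2 and 39.4 CPM in cHCs, 0.0803 and 0.0666 CPM in OHCs (P7), 0 and 0.0468 CPM in OHCs (P22) and 0 in SCs and IHCs. The ephrin receptor gene Epha5 had 151 and 299.9 CPM in cHCs and at most 2.40 CPM elsewhere. Counting did not use strand, and Tnc overlaps the antisense gene 8030451A03Rik, another gene of the set (mm9 chr4:63640888-63810958), so reads of these genes cannot be told apart. Such an antisense overlap was found for 21 of the 142 annotated genes and an overlap on the same strand for 4.

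Receptors, ligands and signalling proteins formed the largest named group, with 21 genes. Prkx, a kinase related to protein kinase A, had 646 and 808 CPM in cHCs, 71.7 and 43.1 CPM in SCs, 25.2 and 77.1 CPM in OHCs (P7), 8.26 and 38.1 CPM in OHCs (P22) and 27.6 and 19.5 CPM in IHCs. Nfkbib, an inhibitor of NF-kappa-B, had 516 and 789 CPM in cHCs, 69.1 and 49.3 CPM in SCs, 32.6 and 20.7 CPM in OHCs (P7), 0.975 and 10.02 CPM in OHCs (P22) and 8.64 and 6.53 CPM in IHCs. These genes were expressed in most cell types and met the rule by their level in cHCs. By contrast, the adhesion receptor gene Gpr97 had 21.05 and 25.0 CPM in cHCs, 0.0247 and 0.0443 CPM in SCs and 0 in the other 6 libraries. Its neighbour Gpr56, 3501 bases away in mm9, was also in the set with 48.6 and 145 CPM in cHCs and at most 3.54 CPM elsewhere. Receptor genes for neurotransmitters and peptides included Grm2 (metabotropic glutamate receptor) with 89.4 and 133 CPM in cHCs and Sstr2 (somatostatin receptor) with 56.9 and 35.8 CPM, and at most 15.7 and 1.77 CPM elsewhere. Secreted proteins included Cer1, an antagonist of BMP and Nodal, with 11.3 and 59.6 CPM in cHCs, and Figf (VEGF-D) with 62.0 and 76.0 CPM, and at most 0.0740 and 2.44 CPM elsewhere.

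Cytoskeletal and sarcomeric genes numbered 10. Myo7b, a myosin of intestinal microvilli and a paralog of the hair cell gene Myo7a, had 38.1 and 38.0 CPM in cHCs, 0.0740 and 0.0443 CPM in SCs and 0 in the other 6 libraries. Pdlim4, an actin-binding adaptor, had 34.0 and 16.0 CPM in cHCs, 0.0247 and 0.0443 CPM in SCs, 0.0268 and 0 CPM in OHCs (P7) and 0 in the 4 libraries of mature hair cells. Myo7b and Pdlim4 were thus at 3 counts or fewer in every library other than cHCs. Tprn, which encodes taperin of the stereocilia base, was less sharply set apart, with 75.02 and 70.4 CPM in cHCs and up to 11.7 CPM elsewhere. Actn3, an alpha-actinin of muscle, had 257 and 147 CPM in cHCs and up to 19.6 CPM elsewhere.

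Genes of the ciliary axoneme made up 10 of the set. Ttc21a, related to a component of intraflagellar transport, had 342 and 464 CPM in cHCs, 0.494 and 2.83 CPM in SCs, 6.43 and 10.2 CPM in OHCs (P7), 20.2 and 1.498 CPM in OHCs (P22) and 12.1 and 6.03 CPM in IHCs. Efcab1, a calcium-binding protein of the outer dynein arm, had 58.2 and 79.8 CPM in cHCs and at most 2.36 CPM elsewhere, and Rsph4a, of the radial spoke head, had 27.6 and 18.8 CPM and at most 2.36 CPM. In SCs, 9 of the 10 genes were at 3 counts or fewer in both libraries, and for 7 of the 10 the next highest library was one of OHCs (P7). Unlike the regulators, 5 of the 10 were higher in cHC library 16 and the others in library 13.

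A further 8 genes encode lipid, glycan and other enzymes, with lower cHC levels between 10.7 and 59.9 CPM and ratios between 5.18 and 34.8. Hpn, the membrane protease hepsin, had 59.9 and 74.9 CPM in cHCs and at most 8.32 CPM elsewhere, and the glycosyltransferase gene Galnt5 had 31.8 and 28.0 CPM and at most 0.803 CPM.

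Serine, one-carbon and amino acid metabolism was represented by 5 genes. Psat1, the phosphoserine aminotransferase of serine synthesis, had 1195 and 907 CPM in cHCs, 71.0 and 29.8 CPM in SCs, 11.8 and 3.796 CPM in OHCs (P7), 0.103 and 0 CPM in OHCs (P22) and 17.7 and 13.5 CPM in IHCs. Psph, the phosphatase of the last step of that pathway, had 315 and 538 CPM in cHCs, 12.5 and 46.8 CPM in SCs, 10.6 and 5.79 CPM in OHCs (P7), 0.0513 and 9.45 CPM in OHCs (P22) and 12.5 and 23.2 CPM in IHCs. Both enzymes were present at a lower level in SCs. Mthfd2, of the mitochondrial folate cycle, had 81.1 and 94.7 CPM in cHCs and at most 4.26 CPM elsewhere, Cbs, of the transsulfuration pathway, had 51.8 and 60.2 CPM and at most 8.98 CPM, and the amino acid transporter gene Slc7a5 had 72.3 and 435 CPM and at most 5.62 CPM. Slc7a5 was the gene with the largest ratio of cHC library 16 to library 13, at 6.03.

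Among genes with no such role or with other roles, 6330503K22Rik was the most abundant of the set, with 2921 and 4777 CPM in cHCs, 40.5 and 73.1 CPM in SCs, 71.5 and 130.1 CPM in OHCs (P7), 201 and 143 CPM in OHCs (P22) and 70.8 and 109 CPM in IHCs. Anxa4, a calcium-dependent membrane-binding annexin found in vestibular hair cells, had 1563 and 2310 CPM in cHCs, 17.2 and 32.7 CPM in SCs, 87.4 and 86.4 CPM in OHCs (P7), 6.31 and 0.281 CPM in OHCs (P22) and 18.3 and 1.43 CPM in IHCs. Neither gene was absent from the other cell types. A list of 4 vestibular hair cell markers summed to 1733 and 2448 CPM in cHCs, of which Anxa4 was most, while Calb2 had 169 and 138 CPM, Mapt 0.815 and 0.151 CPM and Spp1 0.306 and 0 CPM, all below their highest level in IHCs. Per exon length, the highest levels in the set were those of 6330503K22Rik at 353 and 578 RPKM (CPM per kilobase of exon) in cHCs and Anxa4 at 336 and 497 RPKM, while Atoh1 stood at 209 and 1030 RPKM. Igll1, a surrogate light chain of B cell precursors, had 284 and 560 CPM in cHCs, 0.592 and 0.266 CPM in SCs, 0.482 and 0.133 CPM in OHCs (P7) and 0 in the 4 libraries of mature hair cells. Gm1965 had 15.1 and 23.6 CPM in cHCs, 0.0268 and 0 CPM in OHCs (P7) and 0 in the other 6 libraries. Gm10564 had 23.5 and 26.2 CPM in cHCs, 0.0740 and 0 CPM in SCs, 0.0803 and 0 CPM in OHCs (P7) and 0 in the 4 libraries of mature hair cells. Igll1 thus had no more than 0.592 CPM outside cHCs.

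**Figure D3:**
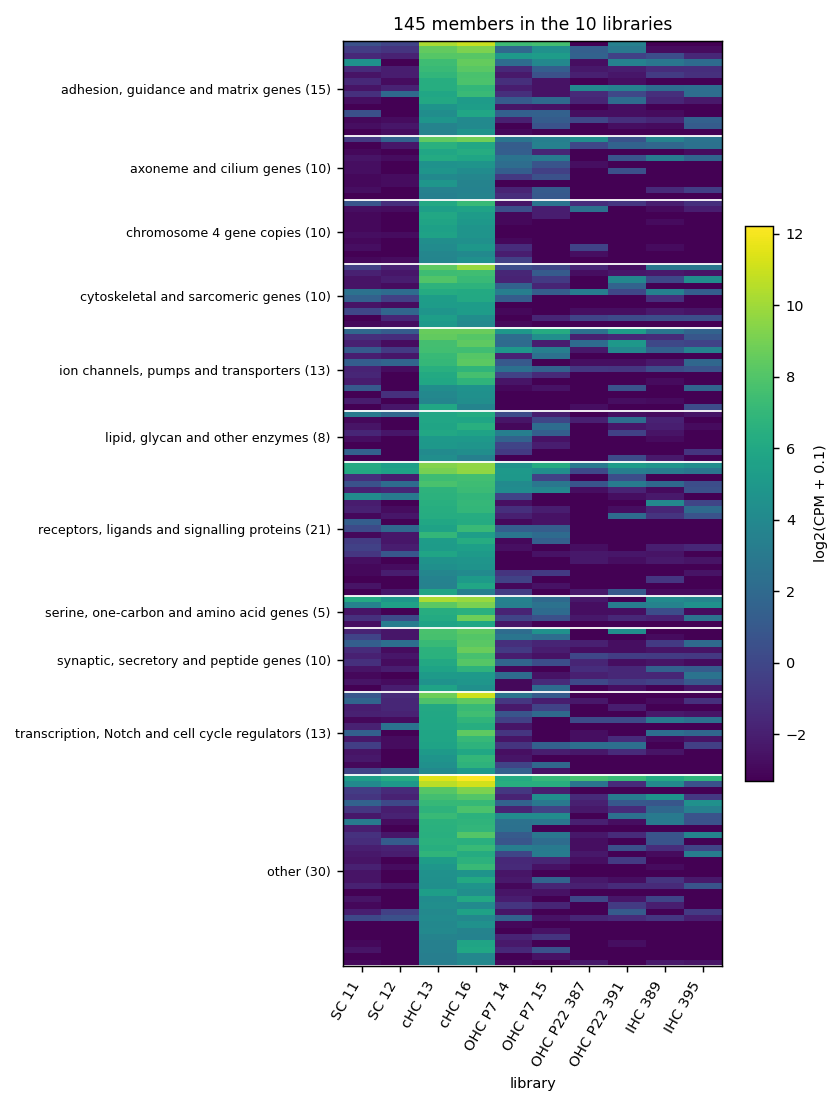
Level of the 145 genes as log2 of CPM with 0.1 added (colour scale), with genes in rows grouped by role, the number of genes in brackets, and the 10 libraries in columns. The 2 cHC columns are the brightest in every row, which the rule ensures, and dark cells are levels at or near 0.

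Of the 145 genes, 10 lie within 1 stretch of chromosome 4 (mm9 chr4:41761141-42626784) that is made of repeated copies. They are Ccl21b, Ccl21c, Gm10591, Gm10599, Gm13300, Gm13301, Gm13302, Gm13304, Gm17167 and Gm5859, with between 13.5 and 66.5 CPM in cHC library 13 and between 16.4 and 145 CPM in library 16. Ccl21b, a chemokine gene, had 45.4 and 26.7 CPM in cHCs, 0.0247 and 0 CPM in SCs and 0 in the other 6 libraries, and Gm10591 had 53.5 and 30.5 CPM in cHCs, 0.0247 and 0 CPM in SCs, 0.0268 and 0 CPM in OHCs (P7), 0 in OHCs (P22) and 0.0366 and 0 CPM in IHCs. Gm13301 had 20.3 and 22.6 CPM in cHCs, 0.0247 and 0 CPM in SCs, 0.0268 and 0 CPM in OHCs (P7) and 0 in the other 4 libraries. Gm13304 had 48.6 and 26.4 CPM in cHCs, 0.0494 and 0.0443 CPM in SCs and 0 in the other 6 libraries. These 4 genes were among the 12 with the largest ratios, and the largest, 1084 for Ccl21b, rests on 1 count in an SC library. Between 60.1% and 100% of their exonic stretches of 50 bases, 95.5% at the median, occur in another gene of the same region. Counts of single copies are therefore uncertain, since reads could be split among near-identical genes. Together they held 386 and 409 CPM in cHCs. Of 40 other genes of the region that share at least 50% of their stretches, 20 were higher in both cHC libraries than in all 8 others without meeting the rule. How many of all genes were higher in this way was not counted.

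**Figure D4:**
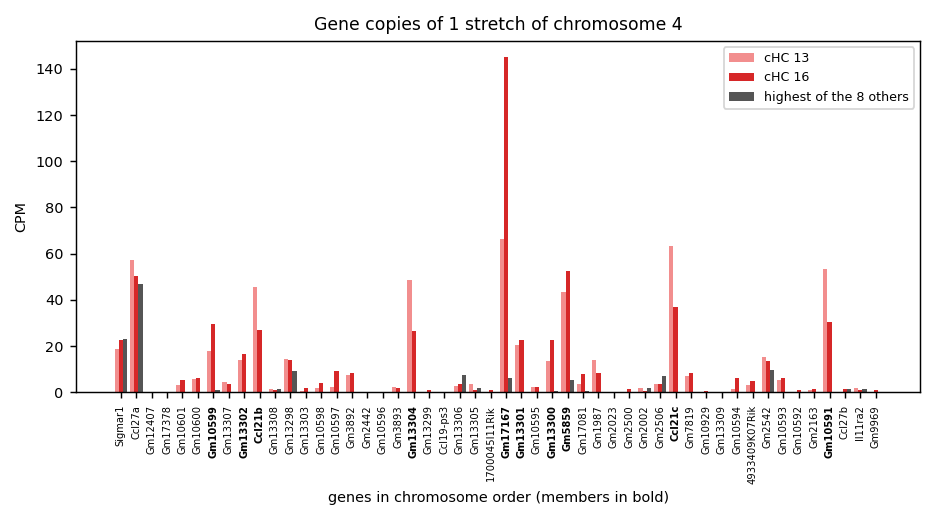
Level (CPM, vertical axis) of the genes of the repeated region of chromosome 4 that share at least 50% of their stretches, in chromosome order along the horizontal axis with the 10 genes of the set in bold, with bars for cHC library 13, cHC library 16 and the highest of the 8 other libraries. The tallest bar is that of Gm17167 in library 16 at 145 CPM, and genes not in bold also have low cHC bars beside bars near 0.

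The cell type with the highest level outside cHCs varied among the 145 genes, and this is a description, since the rule used that level. It was OHCs (P7) for 66 genes (45.5%), SCs for 31 (21.4%), IHCs for 28 (19.3%) and OHCs (P22) for 20 (13.8%). Among all genes at 10 CPM or more in both cHC libraries, these shares were 20.4%, 30.5%, 26.2% and 22.9%. In OHCs (P7), 39 of the 145 genes had 3 counts or fewer in both libraries, compared with 63 in SCs, 75 in IHCs and 83 in OHCs (P22), although depth differed between these libraries. The share of all genes at 3 counts or fewer was not worked out. In OHCs (P7), 9 genes reached 10 CPM in both libraries, namely 6330503K22Rik, Anxa4, Tnc, Robo2, Kcnh7, Mlf1, Fgf11, Prkx and Nfkbib. In SCs 6 genes did so, in IHCs 4 and in OHCs (P22) 2.

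Levels were compared in 3 contrasts between native cells with edgeR, in the fit of all libraries and 16891 genes. All 145 genes passed the filter on low counts there, but only 64, 58 and 71 of them did so when OHCs (P7) and SCs, OHCs (P7) and OHCs (P22), or OHCs (P7) and IHCs stood alone, so that many were tested through their level in cHCs. The rule also bounded the native levels from above. For these reasons the shares called, here and in the 2 other contrasts, do not compare the set with all genes. In OHCs (P7) over SCs, 5 of the 145 genes rose, which is 3.45% against 2.56% of all genes. Robo2 had a log2 difference of 7.32 (SE 1.29, edgeR adjusted p = 0.0109) and Tnc one of 7.32 (SE 1.65, edgeR adjusted p = 0.0425). The ERG channel genes rose as well, Kcnh6 by 5.22 (SE 1.13, edgeR adjusted p = 0.0302) and Kcnh7 by 4.14 (SE 0.89, edgeR adjusted p = 0.0290), and Heg1 rose by 4.71 (SE 0.94, edgeR adjusted p = 0.01996). Each of the 5 was higher in both P7 libraries than in both SC libraries. These calls depended on single libraries: without SC library 12 no gene of the set passed (edgeR, 29 at an unadjusted p under 0.05) and without SC library 11 only Robo2 did, and without a filter 25 did. DESeq2 called 40 genes of the set, 32 of them higher, which is 27.6% against 15.9% of all genes. limma-voom called 4, 3 of them higher, which is 2.76% against 6.94%, and of the 5 genes it kept Robo2 alone. With the pair of cell types alone, 1 of the 64 genes that passed the filter was called, which is 1.56% against 3.29% of all genes. The share of the set that was called thus changed with the tool and with the libraries in the fit.

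In OHCs (P7) against OHCs (P22), Psat1 rose by 6.84 on the log2 scale (SE 1.16, edgeR adjusted p = 0.0399) with 11.8 and 3.796 CPM at P7 and 0.103 and 0 CPM later, where 0.42% of all genes rose. Both later levels were under 3 counts, so the size of this rise is uncertain. Sema7a fell by 7.35 (SE 1.36, edgeR adjusted p = 0.0461), from 15.2 and 11.4 CPM in OHCs (P22) to 0.134 and 0.0666 CPM at P7, where 0.13% of all genes fell. Its level in P7 library 15 was 1 count, so this size is uncertain too. The call of Sema7a was lost with limma-voom, with RLE factors, with the pair of cell types alone and without either P7 library or the P21 library, and limma-voom called no gene of the set here (27 at an unadjusted p under 0.05), against 27 by DESeq2, which is 18.6% against 9.66% of all genes. Without the P21 library of OHCs (P22), whose TMM factor of 0.583 was the lowest of all libraries, 1 gene of the set passed, and without the P22 library the number was 4. In OHCs (P7) against IHCs, Heg1 rose by 8.44 (SE 1.18, edgeR adjusted p = 0.0152). Its levels of 0.0366 and 0.0377 CPM in IHCs were 1 count per library, below the limit of detection, so the size of this rise is uncertain. Tnc, at 0 in both IHC libraries, was at least 1595-fold higher in OHCs (P7), counted against a floor of 3 counts per library (edgeR adjusted p = 0.0363), and 0.249% of all genes rose in this contrast. Leaving out P7 library 14 gave 3 genes and leaving out library 15 gave 4, while without the P75 library of IHCs only 1 gene passed and without the P74 library none did (edgeR, 41 at an unadjusted p under 0.05). DESeq2 called 37 genes of the set, 32 of them higher (25.5% against 7.86% of all genes), and limma-voom 3 (2.07% against 2.17%). With the pair of cell types alone, 1 of the 71 genes that passed the filter was called here (1.41% against 0.880% of all genes). With OHCs (P7) and OHCs (P22) alone, 0 of 58 were called, against 0.174% of all genes.

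**Figure D5:**
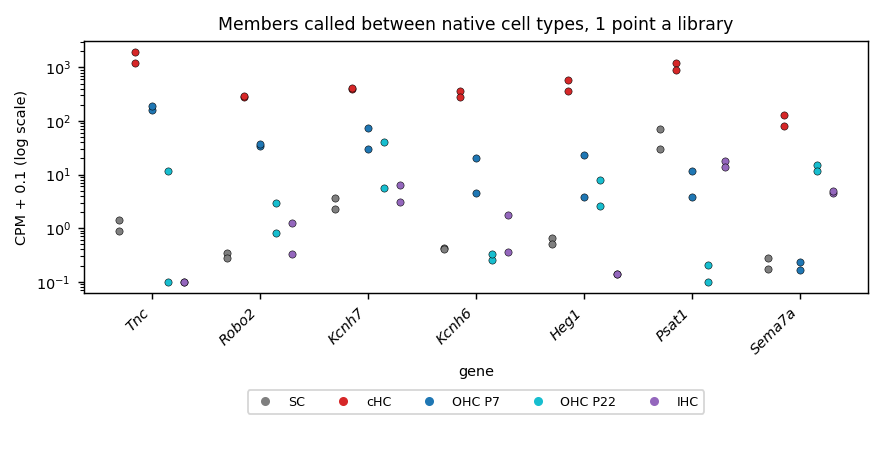
Level (CPM with 0.1 added, vertical log axis) of the genes of the set that passed a contrast between native cell types (horizontal axis), with 1 point for each of the 10 libraries, coloured by cell type. OHCs (P7) lie between cHCs and SCs for Tnc, Robo2, Kcnh7, Kcnh6 and Heg1, as with 163 and 192 CPM for Tnc, but at the bottom for Sema7a with 0.134 and 0.0666 CPM.

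The rule used the lower of the 2 cHC levels, so the spread between the cHC libraries is also a description. Of the 145 genes, 101 lay within 2-fold between libraries 13 and 16, which is 69.7%, against 72.0% of all genes at 10 CPM or more in both. The 13 genes that were over 4-fold apart included Slc7a5 (6.03 times higher in library 16), Neurl1b (5.78), 8030451A03Rik (5.67), Cer1 (5.30) and Atoh1, while Vwc2 and Atp10a had ratios of 0.190 and 0.211 in the other direction. With 1 cHC library alone, the rule would have taken 302 genes from library 13 and 342 from library 16, so each library held many genes that the other did not place in the set.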

How the data were processed

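According to the study's methods and notes, cDNA of picked cells was amplified, sequenced in pairs, trimmed, mapped to mm9 with STAR and BWA, and counted by HTSeq; strand was not used. The authors deposited raw counts per gene symbol, without normalization. The files attached to 4 of the 10 sample records held another library, so each library was taken by the name of its file, checked against the study's CPM columns. Counts of unassigned reads (31.5% to 61.8% of a file's total without a gene) were left out.

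The 145 genes were chosen from unscaled CPM with earlier results of these data known, as were all lists. Differential expression was tested, 2-sided, with edgeR 4.0.16 in R 4.3.3 (TMM, filterByExpr by cell type, quasi-likelihood test, 1 model of all 10 libraries, Benjamini and Hochberg adjustment per contrast, threshold 0.05). This test gives no SE, so each SE was worked out as the size of the log2 difference divided by the square root of its F statistic. On simulated counts of 16414 genes for OHCs (P7) against SCs, 200 genes were changed by 4 on the log2 scale. Of these, 63 (31.5%) were recovered, with 4 false calls, so most changes of that size were missed. Genes were named by role. Full values are given for the 12 highest cHC levels, the 12 largest ratios and members of the lists, and the 4 genes on each side of both thresholds are named with the value that places them. Some genes that this rule names are not reported here. Genes of the pathway lists past the threshold are named, and lists of cell type markers are given as counts and sums. Exon lengths were those of GENCODE vM1. Promoters were RefSeq windows. Floors cover counting error only. Alternatives were DESeq2 1.42.0, limma-voom (limma 3.58.1), RLE factors, no filter, pairs of cell types, files as attached and leaving out libraries.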

Additional observations from a re-analysis of the deposited data

How the results depend on the processing

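No paired analysis was possible because the cell types share no replicate numbers. The set of 145 genes became 119 with TMM-scaled CPM, 91 with a fold of 10, 225 without the OHC (P7) libraries, and between 147 and 342 without 1 library (302 without cHC library 16 and 342 without cHC library 13). All 145 were kept whenever libraries were left out. Leaving out a library can only relax the rule, so this outcome was fixed in advance and says nothing of stability. With the files as attached to the records the set became 2 genes, none of them of the 145. For the other cell types, TMM scaling, chosen after seeing the data, gave 49, 29, 37 and 53 genes for SCs, OHCs (P7), OHCs (P22) and IHCs.

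The number of genes called depended on the tool. For cHCs against SCs it was 311, and 1771 by DESeq2, 1065 by limma-voom, 952 without a filter and 198 with the pair of cell types alone, with 202 to 403 without 1 library (202 without cHC library 16). For cHCs against OHCs (P7) it was 58, and 1123, 378 and 558 by DESeq2, limma-voom and no filter, with 26 to 67 without 1 library (26 and 31 without OHC (P7) libraries 14 and 15). For OHCs (P7) against SCs it was 576, and 2683, 1172 and 1503, with 413 to 445. For OHCs (P7) against OHCs (P22) it was 93, and 1631 by DESeq2, 54 with RLE factors, 844 without a filter and 23 with the pair alone, with 22 to 271 (22 without the P21 library and 271 without the P22 library). For OHCs (P7) against IHCs it was 64, and 1327, 367 and 604 by DESeq2, limma-voom and no filter and 124 with the pair alone, with 37 to 62 (37 without the P74 library). With the files as attached, 0 genes passed in each of the 5 contrasts by edgeR, and the log2 differences of Kcnh6 (-0.31), Sema7a (1.56), Jag2 (-2.71), Nhlh1 (-0.39), Myt1 (-2.14), Srrm4 (-1.32), Ocm (0.11), S100a1 (0.32) and Chga (-0.75) changed sign, since that setting mixes cell types. No other setting changed the sign of a named gene, but calls were lost, of which some are given here. Of 10 alternatives, 6 ended that of Otof, 5 that of Id1 in cHCs against OHCs (P7), 6 those of Jag1, Mycl1 and Srrm4 against OHCs (P22) and 7 that of Cdkn1a. In OHCs (P7) against SCs, 6 ended that of Id3, and 4 ended each of those of Hes1, Hey2, Jag2 and Myt1. Why the other counts moved was not tested. With 2 libraries for each cell type, a call that failed says little.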

Other observations

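Genes outside the set were read in 2 lists that were drawn up after the values were seen, so they support nothing. Of 31 motile cilium genes, 8 belong to the set, and 16 in all had both cHC libraries above the other 8. The share of all genes that did so was not counted, so this number has no measure beside it. Foxj1, the transcription factor of motile ciliogenesis, had 48.4 and 76.1 CPM in cHCs, 13.3 and 11.6 CPM in OHCs (P7) and at most 8.05 CPM in the other libraries, a ratio of 3.63 that left it outside the set. Ccdc40, a ruler of the axoneme, had 89.0 and 210 CPM in cHCs and 1.07 and 35.4 CPM in OHCs (P7).

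Of 20 serine and one-carbon genes, 5 belong to the set and 6 in all had both cHC libraries above the other 8, again without a share over all genes. Phgdh, the first enzyme of serine synthesis, had 96.9 and 18.003 CPM in cHCs and 55.5 and 23.007 CPM in IHCs, so that the groups overlapped. Atf4, a transcription factor of amino acid stress, had 116 and 224 CPM in cHCs and overlapped SCs with 124 and 161 CPM.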
